A study of Homo sapiens with 2 samples.

Results

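The cells described here are NR2F2-positive, SHOX2-negative, atrial-like cardiomyocytes, 1293 of the 24038 barcodes in a single-cell RNA-seq library. They were chosen in 3 steps by their own counts of unique molecular identifiers (UMIs, the number of RNA molecules captured). Barcodes with fewer than 500 genes or fewer than 1000 UMIs, or with over 25% of UMIs from mitochondrial genes, were dropped, and 21623 passed. Cardiomyocytes were those in which 12 contractile genes together reached 20000 CPM (UMIs per 1000000 UMIs), and mitotic cells, with 10 or more UMIs over 5 mitosis genes, were set aside. Among the 16935 cells left, atrial-like cells had at least 2 UMIs of NR2F2 and none of SHOX2 or HEY2. These values of NR2F2, SHOX2 and HEY2 made the class and are no result.

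The study thawed frozen cardiomyocytes that had been made from H9, a human embryonic stem cell line, and collected at day 15 of differentiation. All cells carried gCaMP6f, a fluorescent calcium reporter, and no untreated or reporter-free group was analysed here. Each stained sample received a hashtag antibody, and the samples were mixed into 1 pool. There are 13 hashtags, and the labels do not say what any of them marks. The hashtags therefore cannot be matched to conditions or replicates, and they serve here as a split of the pool. No p-value is given, and every interval is an exact 95% interval that covers counting error only.

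Atrial-like cells were set against 2 other classes. Ventricular-like cells, 6352 in number, had at least 2 UMIs of HEY2 and none of NR2F2. SHOX2-positive cells, 181 in number, met the atrial-like rule except that they had at least 1 UMI of SHOX2. Cells with both NR2F2 and HEY2 (716) were left out of all 3 classes, and Scrublet, a doublet caller, marked 41.2% of them. It marked 9.74% of atrial-like and 10.0% of ventricular-like cells, and these were kept.

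NR2F2 (COUP-TFII) and its relative NR2F1 (COUP-TFI) are nuclear receptors that are enriched in atrial heart muscle, and loss of NR2F2 in mouse atria gives them ventricular features. HEY2 and IRX4 act on the opposite side and are typical of ventricular muscle. Atrial cardiomyocytes are also known for storing and secreting atrial natriuretic peptide, the product of NPPA, and PAM is the peptide-amidating enzyme that is abundant in atrial granule membranes. SHOX2 marks the sinus venosus and the sinus node, the pacemaker region next to the atrium.

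Atrial-like cells made up 7.64% of non-mitotic cardiomyocytes (7.24 to 8.05%) and ventricular-like cells 37.5%. The share depended on the hashtag. Of the atrial-like cells, 802 (62.0%) could be given a hashtag, and 554 of these 802 (69.1%) carried Hashtag14 or Hashtag15. The same hashtags held 66 of the 2897 ventricular-like cells with a hashtag (2.28%). Atrial-like cells were 43.6% of the cardiomyocytes of Hashtag15 (40.4 to 46.8%) and 26.3% of those of Hashtag14 (22.7 to 30.1%). In the other 11 hashtags the share ran between 0.494% in Hashtag2 and 9.80% in Hashtag3, with a median of 3.76%. Class and hashtag thus overlap heavily, and levels over all cells are set beside those within the 8 hashtags that held at least 20 cells of both classes, as levels or as the number of hashtags on each side.

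**Figure D1:**
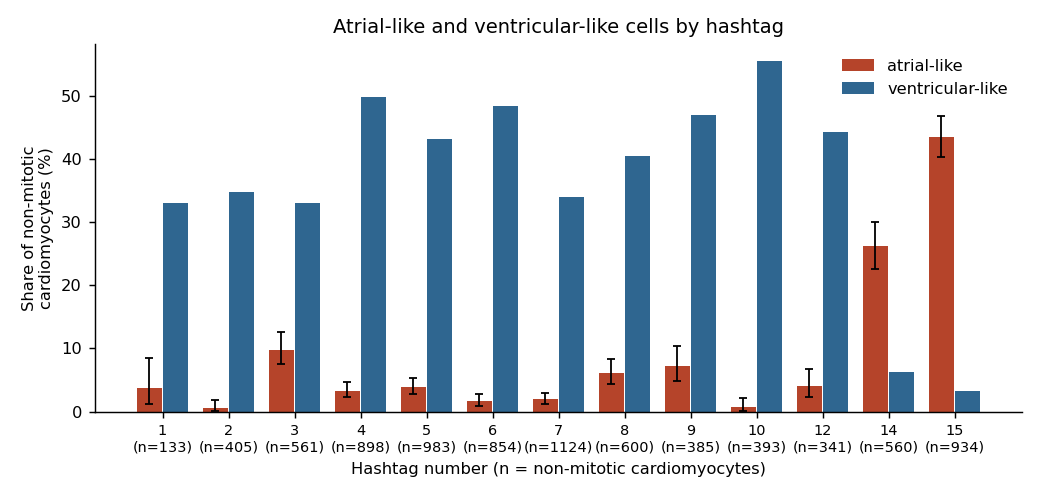
Share of non-mitotic cardiomyocytes (percent) that were atrial-like (red, with exact 95% intervals) and ventricular-like (blue) in each of the 13 hashtags. Atrial-like cells outnumber ventricular-like cells in Hashtag14 and Hashtag15 alone, at 26.3% and 43.6%.

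The median cell held 9237 UMIs and 3032 genes in the atrial-like class, against 15352 UMIs and 3904.5 genes in the ventricular-like class. Mitochondrial UMIs had a median of 2.77% in atrial-like and 2.53% in ventricular-like cells. Summed over cells, the atrial-like class held 13392864 UMIs and the ventricular-like class 106938764. The 12 contractile genes of the rule summed to 57329 CPM in atrial-like cells and 41410 CPM in ventricular-like cells. NR2F2 itself ranged from 2 UMIs, in 413 atrial-like cells, to 21 UMIs in 1 cell, with a median of 3.

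Of the 4 genes given as markers of the class, NR2F2 was used by the rule and the other 3 were all higher than in ventricular-like cells. The 4 were chosen with earlier results of these data known, so this direction is no test of the class. NR2F1 was at 41.7 CPM in atrial-like cells and 0.870 CPM in ventricular-like cells, a ratio of 48.0 (38.5 to 60.4). In the 8 hashtags it was lowest at 10.3 CPM, had a median of 22.6 and was highest at 84.4 CPM in atrial-like cells, against 0, 0.387 and 1.96 CPM in ventricular-like cells, and the ranges did not overlap. NPPA was at 2124 CPM in atrial-like cells and 131 CPM in ventricular-like cells, a ratio of 16.2 (15.9 to 16.5). Its lowest, median and highest hashtag levels were 738, 2191 and 3253 CPM in atrial-like cells and 66.5, 132 and 199.6 CPM in ventricular-like cells, again without overlap. PAM was at 239 CPM in atrial-like cells and 93.7 CPM in ventricular-like cells, 2.56-fold higher (2.46 to 2.66). Its hashtag levels were 200.6, 249 and 431 CPM in atrial-like cells and 74.4, 91.1 and 115 CPM in ventricular-like cells, so every hashtag lay on the same side.

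The 250 bases before the start of 3 of these genes are shown because they mark the ends of the contrast: NPPA and NR2F1 on the atrial side and HEY2, whose absence is part of the rule, on the other. They are RefSeq sequences of GRCh38.p14, written 5′ to 3′ on the strand of the gene. NPPA lies on the minus strand at chr1:11847784-11848033, NR2F1 on the plus strand at chr5:93582972-93583221 (the first of 2 starts listed) and HEY2 on the plus strand at chr6:125749382-125749631. Capitals mark the letters GATAA, read by GATA factors, and AAGTG, part of sites read by NK2 homeodomain factors, on either strand (TTATC and CACTT).
NPPA: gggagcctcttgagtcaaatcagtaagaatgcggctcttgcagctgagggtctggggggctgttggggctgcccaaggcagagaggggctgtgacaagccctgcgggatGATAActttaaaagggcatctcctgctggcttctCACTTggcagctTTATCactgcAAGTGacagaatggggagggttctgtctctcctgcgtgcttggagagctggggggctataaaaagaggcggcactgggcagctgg
NR2F1: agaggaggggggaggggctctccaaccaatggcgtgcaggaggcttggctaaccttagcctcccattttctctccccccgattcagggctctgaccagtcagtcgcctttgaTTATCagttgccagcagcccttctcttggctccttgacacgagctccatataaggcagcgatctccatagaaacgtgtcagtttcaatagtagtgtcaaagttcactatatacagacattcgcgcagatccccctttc
HEY2: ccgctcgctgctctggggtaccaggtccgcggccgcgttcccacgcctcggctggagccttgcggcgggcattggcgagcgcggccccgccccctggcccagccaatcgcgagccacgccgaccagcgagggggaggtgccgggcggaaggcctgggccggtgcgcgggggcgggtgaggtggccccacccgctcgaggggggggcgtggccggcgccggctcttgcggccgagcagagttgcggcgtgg
The NPPA window held 2 matches of each motif, the NR2F1 window 1 match of the GATA letters and none of the NK2 letters, and the HEY2 window neither. The half-site read by nuclear receptors (AGGTCA, searched on both strands) was in none of the 3 windows. Among 35116 windows of the same length, 20.4% held the GATA letters, 37.6% the NK2 letters and 12.1% the half-site on either strand, and no match overlapped another in the 3 windows shown. A match is a match of letters and shows no binding.

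Over the whole transcriptome, 8671 genes were measured, that is, had at least 10 CPM and at least 10 UMIs in the class where they were higher. In atrial-like cells 972 of them (11.2%) were higher and 384 (4.43%) lower than in ventricular-like cells by at least 1.5-fold, the size used for every count below. The median log2 ratio of all measured genes was 0.10, so the lists below are read against that value. Within hashtags the pattern was partly the same. Of the 972 higher genes, 445 were higher in every one of the 8 hashtags, and 554 kept a median ratio past 1.5 over the hashtags with 5 CPM added to both sides. Of the 384 lower genes, 219 were lower in every hashtag and 246 kept a median past 1.5. Among all measured genes 8.8% were higher and 7.01% lower in all 8 hashtags, and 3.4% were higher and 2.87% lower with ranges that did not overlap.

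Of the 15 atrial markers listed, 10 besides NR2F2 were measured. In atrial-like cells 7 of these 10 were higher and none was lower, with a median log2 ratio of 1.37, and 6 of the 7 were higher in every hashtag. The 7 include NR2F1, NPPA and PAM, the markers given above. TBX5, a T-box factor needed for atrial identity and septation, was at 155 CPM in atrial-like cells and 58.3 CPM in ventricular-like cells, 2.66-fold higher. MYH6, the alpha myosin heavy chain of the atrium, was at 5764 CPM in atrial-like cells and 3202 CPM in ventricular-like cells. Its hashtag ranges overlapped (4135 to 6524 CPM in atrial-like and 2523 to 4234 CPM in ventricular-like cells), although it was higher in all 8 hashtags.

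Other genes of the adult atrium were at low levels or did not differ. SLN, the atrial calcium pump regulator sarcolipin, was at 0.896 CPM in atrial-like and 0.234 CPM in ventricular-like cells. KCNA5, the channel of the ultra-rapid potassium current, was at 4.33 CPM in atrial-like and 3.18 CPM in ventricular-like cells. Both were below the level at which a gene counted as measured. KCNJ3 and KCNJ5 encode the channel subunits of the acetylcholine-activated potassium current. KCNJ3 was 2.60-fold higher (2.13 to 3.17), at 10.1 CPM in atrial-like and 3.87 CPM in ventricular-like cells, and was higher in 6 of 8 hashtags. KCNJ5 was at 16.0 CPM in atrial-like and 17.9 CPM in ventricular-like cells, 1.12-fold lower (0.973 to 1.30). GJA5, the atrial connexin 40, was at 10.5 CPM in atrial-like and 7.64 CPM in ventricular-like cells, with 4 hashtags on each side. Thus the developmental atrial factors, NPPA and PAM were higher, while SLN and KCNA5 were below 10 CPM in the class.

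All 8 measured ventricular markers besides HEY2 were lower in atrial-like cells, with a median log2 ratio of -1.44, and 5 of them were lower in every hashtag. IRX4, the ventricular Iroquois factor, was at 25.7 CPM in atrial-like cells and 128 CPM in ventricular-like cells, 4.97-fold lower (4.47 to 5.55). Its hashtag levels were 13.5, 21.3 and 64.3 CPM (lowest, median, highest) in atrial-like cells and 109.5, 132 and 161 CPM in ventricular-like cells. GJA1, the working-muscle connexin 43, was at 8.44 CPM in atrial-like cells and 41.6 CPM in ventricular-like cells, 4.93-fold lower, and its hashtag ranges did not overlap. MYL3, the ventricular essential light chain, was at 2034 CPM in atrial-like cells and 3674 CPM in ventricular-like cells, 1.81-fold lower in total and lower in every hashtag. MYL2, the ventricular regulatory light chain, was at 6.87 CPM in atrial-like cells and 18.8 CPM in ventricular-like cells, low in both classes.

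MYH7, the beta myosin heavy chain, was at 176 CPM in atrial-like cells and 446 CPM in ventricular-like cells, 2.53-fold lower. The difference held in 7 of 8 hashtags. In Hashtag7, with 22 atrial-like cells, MYH7 was at 465.5 CPM in atrial-like cells and 107 CPM in ventricular-like cells, the opposite order. The Iroquois genes IRX1, IRX2 and IRX3 were lower, by 4.61, 3.66 and 3.10-fold. IRX1 and IRX2 were lower in every hashtag, and IRX3 in 7 of 8.

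**Figure D2:**
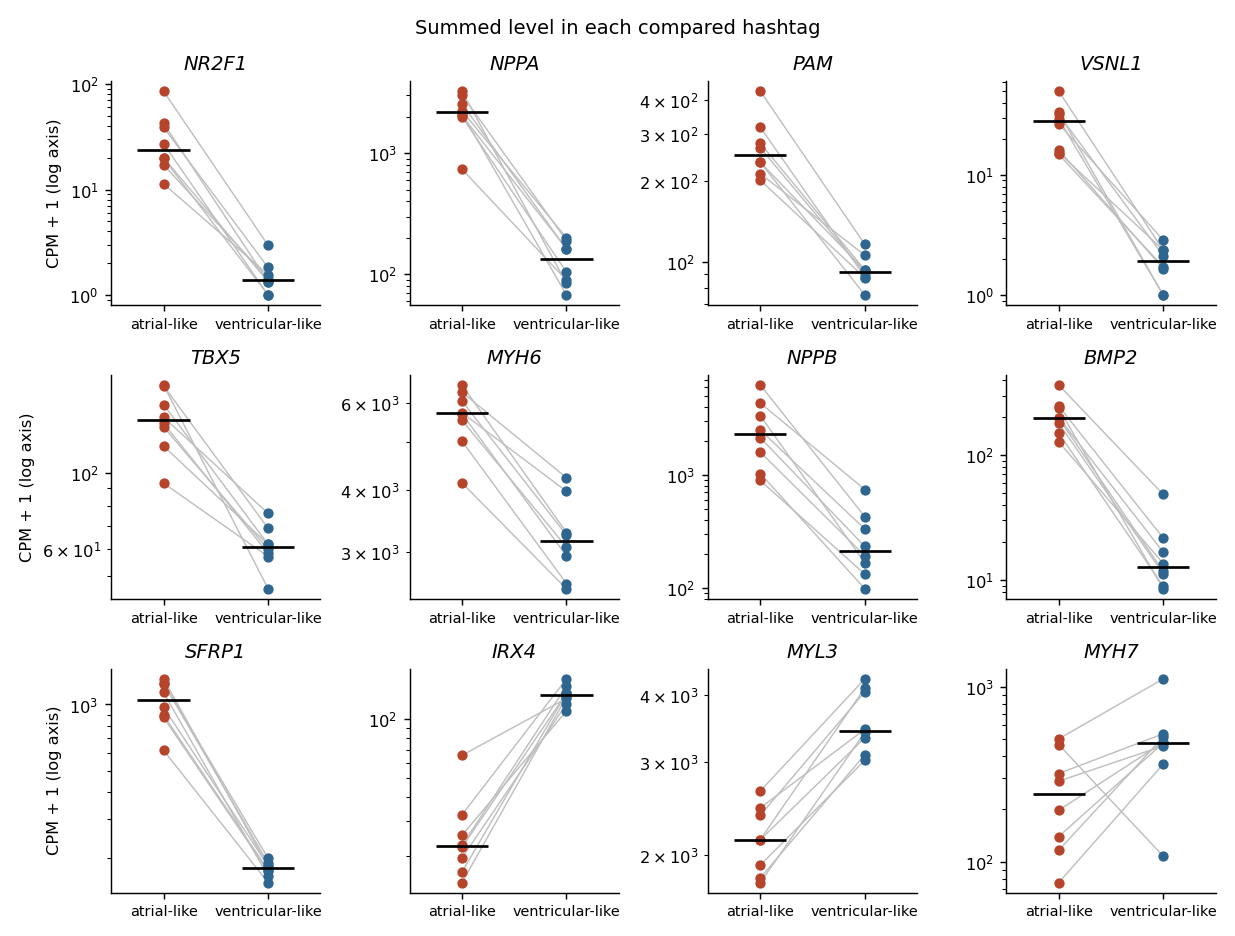
Summed level (CPM + 1, log axis, a separate scale for each gene) of 12 genes in atrial-like cells (red) and ventricular-like cells (blue) of the 8 hashtags with at least 20 cells of each, with a grey line joining the classes of 1 hashtag and a black bar at the median. NR2F1, NPPA, PAM, VSNL1, TBX5, NPPB, BMP2 and SFRP1 are higher and IRX4 and MYL3 lower in atrial-like cells without overlap, whereas the lines of MYH7 cross.

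Genes known from the sinus node were also higher, in cells chosen to lack SHOX2. Of 8 measured members, 7 were higher and 1 was lower, with a median log2 ratio of 1.98, and 6 of the 7 were higher in every hashtag. VSNL1, a neuronal calcium sensor used as a node marker, was at 26.8 CPM in atrial-like cells and 1.19 CPM in ventricular-like cells, a ratio of 22.6 (18.4 to 27.9). GNAO1, a G protein alpha subunit, was 12.6-fold higher, and BMP4, a BMP ligand, 9.35-fold higher. CACNA1D, the L-type calcium channel of pacemaking, was at 82.1 CPM in atrial-like cells and 16.0 CPM in ventricular-like cells. HCN4, the main pacemaker channel, was at 145 CPM in atrial-like cells and 50.1 CPM in ventricular-like cells. VSNL1, GNAO1, BMP4, CACNA1D and HCN4 showed no overlap between the classes over the 8 hashtags. Among the list's defining factors, TBX18 was lower, at 3.81 CPM in atrial-like cells and 10.6 CPM in ventricular-like cells. ISL1, at 9.56 CPM in atrial-like and 3.92 CPM in ventricular-like cells over all cells, did not reach the measured level. Within hashtags ISL1 had a median of 16.2 CPM in atrial-like cells (5.23 to 23.0 CPM). In ventricular-like cells its median was 2.42 CPM (0 to 11.7 CPM), and ISL1 was higher in atrial-like cells in 7 of 8 hashtags.

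All 6 measured markers of the atrioventricular canal, the slowly conducting muscle between atrium and ventricle, were higher, with a median log2 ratio of 0.92, and 3 of them were higher in every hashtag. BMP2, the BMP ligand that patterns the canal, was at 228 CPM in atrial-like cells and 17.3 CPM in ventricular-like cells, a ratio of 13.2 (12.45 to 13.99). Its hashtag levels were 127, 197 and 363 CPM in atrial-like cells and 7.47, 11.6 and 47.3 CPM in ventricular-like cells. TBX3, the T-box repressor of the conduction system, was 3.04-fold higher, and its paralog TBX2 was at 51.1 CPM in atrial-like cells and 30.8 CPM in ventricular-like cells. GJC1, connexin 45, was 2.13-fold higher and MSX2, a homeobox factor of the canal, 1.69-fold. TBX3 and GJC1 were higher in all 8 hashtags, whereas TBX2 and MSX2 were each higher in 6 and lower in 2. The 7 listed canal genes summed to 461 CPM in atrial-like and 133 CPM in ventricular-like cells. In the 4161 cardiomyocytes with no UMI of NR2F2, SHOX2 or HEY2 they summed to 309 CPM. Canal genes were thus not particular to cells with NR2F2.

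Set against ventricular-like cells, the class was therefore not described by the atrial list alone. Atrial, sinus node and atrioventricular canal lists had median log2 ratios of 1.37, 1.98 and 0.92 against 0.10 for all measured genes. These lists share TBX3 between the node and the canal.

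**Figure D3:**
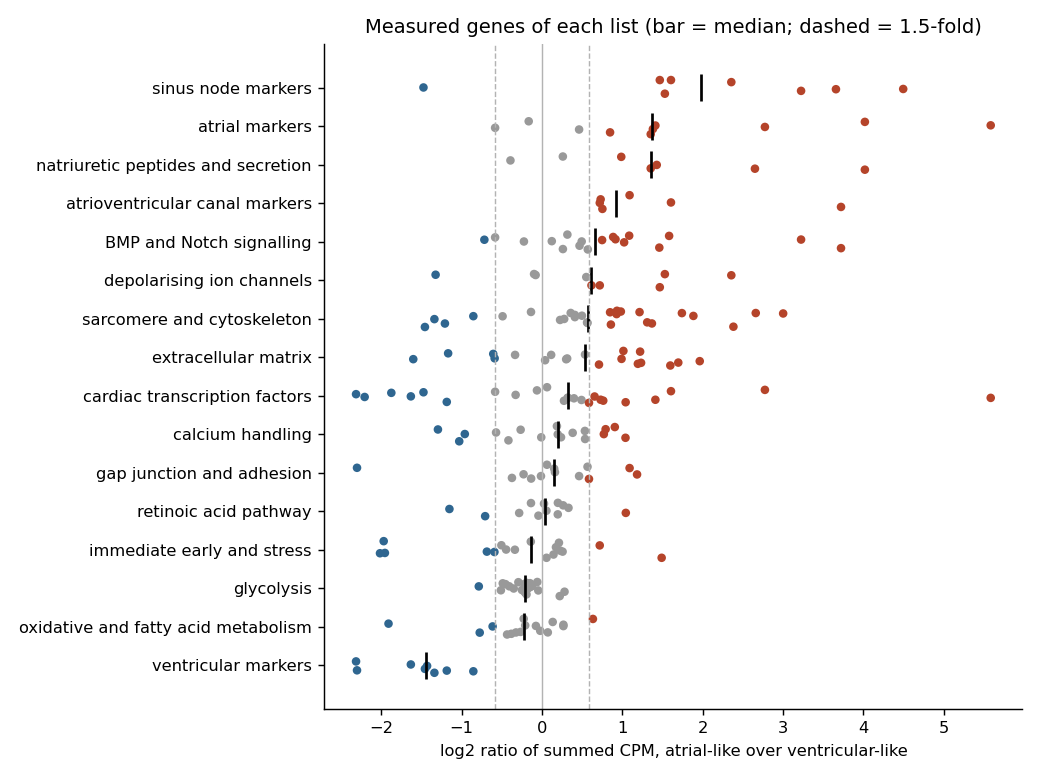
Log2 ratio of summed CPM (atrial-like over ventricular-like) of each measured gene in 16 lists, without the 3 genes of the rule. Black bars are medians, dashed lines mark 1.5-fold, and genes past them are red (higher) or blue (lower). Sinus node markers have the highest median (1.98) and ventricular markers the lowest (-1.44).

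Among 24 measured cardiac transcription factors outside the rule, 9 were higher and 6 lower, and 11 of these 15 held their direction in every hashtag. NKX2-5, GATA4 and MEF2C, factors of all heart muscle, were within 1.5-fold. NKX2-5 was at 567 CPM in atrial-like and 592 CPM in ventricular-like cells, GATA4 at 124 CPM in atrial-like and 94.2 CPM in ventricular-like cells, and MEF2C at 116 CPM in atrial-like and 82.1 CPM in ventricular-like cells. Within hashtags NKX2-5 was lower in 7 of 8, GATA4 higher in 7 and MEF2C higher in all 8. HAND1, a left ventricular factor, was at 63.6 CPM in atrial-like and 145 CPM in ventricular-like cells. MYOCD, the coactivator myocardin, was at 180 CPM in atrial-like and 106 CPM in ventricular-like cells. HAND1 was lower in all 8 hashtags and MYOCD higher in 7.

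The retinoic acid pathway, the signal that directs mesoderm toward atrial fate, did not differ as a list. Of 12 measured genes, 1 was higher and 2 were lower, and the median log2 ratio was 0.04. TGM2, transglutaminase 2, a retinoic acid target, was at 140 CPM in atrial-like and 67.7 CPM in ventricular-like cells, and higher in every hashtag. DHRS3, a retinaldehyde reductase, was 2.22-fold lower and MEIS2, a homeobox factor, 1.63-fold lower, both in every hashtag. RARB, the receptor induced by its own ligand, was at 15.3 CPM in atrial-like and 12.8 CPM in ventricular-like cells, a ratio of 1.20 (1.03 to 1.39), and was higher in 7 of 8 hashtags. CYP26A1, the enzyme that degrades retinoic acid, was at 1.79 CPM in atrial-like and 3.67 CPM in ventricular-like cells, below the measured level.

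BMP and Notch signalling genes were higher as a list, with 9 of 18 measured genes higher, 1 lower and a median log2 ratio of 0.66. In every hashtag 7 of the 9 were higher. Besides BMP2 and BMP4, BMP5 was at 282 CPM in atrial-like and 152 CPM in ventricular-like cells, whereas BMP7 was 1.64-fold lower, in 7 of 8 hashtags. ID2, a helix-loop-helix inhibitor, was at 458 CPM in atrial-like and 225 CPM in ventricular-like cells, and SMAD6, an inhibitory SMAD, at 86.2 CPM in atrial-like and 40.6 CPM in ventricular-like cells. BMP5, ID2 and SMAD6 were each higher in all 8 hashtags. JAG1, a Notch ligand, was 2.997-fold higher (2.81 to 3.20) and higher in every hashtag.

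Genes outside the lists with at least 50 CPM were ranked by ratio, and the 8 largest on the higher side are given here. RSPO3, a secreted Wnt enhancer, was at 71.7 CPM in atrial-like and 4.43 CPM in ventricular-like cells, a ratio of 16.2 (14.5 to 18.1). FZD7, a Wnt receptor, was at 52.7 CPM in atrial-like and 3.47 CPM in ventricular-like cells, a ratio of 15.2. SFRP1, a secreted Wnt antagonist, was at 1093 CPM in atrial-like and 165 CPM in ventricular-like cells, a ratio of 6.62, with hashtag levels of 617, 1051 and 1308 CPM in atrial-like cells and 153, 178 and 198 CPM in ventricular-like cells. The other 5 were SAA1, a serum amyloid A (24.9-fold), CRHBP, the corticotropin-releasing hormone binding protein (11.6-fold), CDC42EP5 (7.63-fold), the iron exporter SLC40A1 (7.63-fold) and the basement membrane chain COL4A6 (5.997-fold). All 8 were higher in every hashtag with no overlap, as were 3.4% of all measured genes. The 8 were picked by their ratio in the same cells, so the split by hashtag is no separate support.

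On the lower side outside the lists, the growth factor PDGFD was at 12.2 CPM in atrial-like and 70.6 CPM in ventricular-like cells, 5.80-fold lower. STC2, a secreted glycoprotein, was 5.15-fold lower and FGF12, an intracellular sodium channel modulator, 4.85-fold lower. PRDM16-DT, a transcript divergent from the ventricular factor PRDM16, was 4.78-fold lower, and PRDM16 itself was at 15.2 CPM in atrial-like and 41.0 CPM in ventricular-like cells. Whether the counting used strand is not given in the sources used here, so reads of such divergent and antisense genes cannot be assigned with certainty. C5orf38, C15orf41, MT1E and LINC01405 completed the 8, at 3.46 to 4.33-fold lower. All 8 genes were lower in every hashtag, as were 7.01% of all measured genes. These 8 too were picked by their ratio in the same cells.

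Of 7 measured genes for natriuretic peptides and secretion, 5 were higher and none lower. NPPB, the B-type natriuretic peptide, was at 1855 CPM in atrial-like and 295 CPM in ventricular-like cells, a ratio of 6.28 (6.18 to 6.39). Its hashtag levels were 893, 2317 and 6266 CPM in atrial-like cells and 97.1, 212 and 742 CPM in ventricular-like cells. The classes did not overlap, but NPPB varied about as widely within the atrial-like class as between classes. SCG5, a secretory granule chaperone, was at 12.99 CPM in atrial-like and 4.83 CPM in ventricular-like cells. CORIN, the protease that activates the atrial peptide, was at 69.5 CPM in atrial-like and 91.2 CPM in ventricular-like cells, within 1.5-fold, and lower in 6 of 8 hashtags. SCG5 was higher in 7 of 8.

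Counted per cell at a common depth of 5000 UMIs, which left out 109 atrial-like and 154 ventricular-like cells, 80.2% of atrial-like cells (77.8 to 82.4%) held an NPPA UMI, against 23.2% of ventricular-like cells. Without thinning the shares were 84.2% of atrial-like cells, at a median depth of 9237 UMIs, and 40.7% of ventricular-like cells, at 15352 UMIs. In 816 EPCAM-positive cells outside the cardiomyocyte gate, which should lack NPPA, the thinned share was 9.56%. Without thinning the EPCAM-positive share was 19.1%, at a median depth of 15429 UMIs. For VSNL1 the thinned shares were 12.4% in atrial-like, 0.549% in ventricular-like and 0.980% in EPCAM-positive cells. For NPPB they were 43.6% in atrial-like, 22.6% in ventricular-like and 24.3% in EPCAM-positive cells, so the ventricular-like share lay below that of the non-muscle cells. NR2F2 was found in 63.9% of the EPCAM-positive cells, and is thus no marker of heart muscle by itself in this pool.

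Of 9 measured depolarising channels, 5 were higher and 1 was lower, and 2 of the 5 were higher in every hashtag. Besides HCN4 and CACNA1D, CACNA1G, the T-type calcium channel, was 1.65-fold higher, and higher in 7 of 8 hashtags. Of 5 measured potassium channels, KCNJ3 and KCNJ8, a pore subunit of ATP-sensitive channels, were higher, each by 2.60-fold, KCNJ3 in 6 and KCNJ8 in all 8 hashtags.

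Calcium handling genes were mixed, with 4 of 17 higher and 3 lower. The sarcoplasmic reticulum pump ATP2A2 was at 544 CPM in atrial-like and 265 CPM in ventricular-like cells, with hashtag levels of 489 to 688 CPM in atrial-like and 241 to 285 CPM in ventricular-like cells. SLC8A1, the sodium-calcium exchanger, was 1.88-fold higher (1.83 to 1.92), and JPH2, the main cardiac junctophilin, 1.73-fold higher, both without overlap. JPH1, its paralog, was 2.45-fold lower without overlap, and ITPR1, a calcium release channel, 2.04-fold lower, in all 8 hashtags. RYR2, the ryanodine receptor, was at 234 CPM in atrial-like and 235 CPM in ventricular-like cells, and higher in 3 of 8 hashtags.

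In the sarcomere list 13 of 27 measured genes were higher and 4 lower, and 12 of the 13 were higher in every hashtag. The 12 contractile genes of the rule are not in this list. ANKRD1, a titin-associated stretch-response protein, was at 3090 CPM in atrial-like and 489 CPM in ventricular-like cells, 6.33-fold higher without overlap. ACTA1, skeletal alpha actin, was 8.01-fold higher, but its hashtag levels in atrial-like cells spread from 34.1 to 1266 CPM and overlapped those of ventricular-like cells, at 22.6 to 76.3 CPM. SYNPO2L, a Z-disc protein, was 3.69-fold and MYOM2, an M-band protein, 5.22-fold higher. TNNI3, the mature cardiac troponin I, was at 179 CPM in atrial-like and 72.3 CPM in ventricular-like cells. FHL2, a LIM protein of the Z-disc, was 2.31-fold lower. SYNPO2L, MYOM2 and TNNI3 were higher and FHL2 lower in all 8 hashtags.

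Surface proteins of use for sorting differed as well. PDGFRA, a growth factor receptor of cardiac precursors, was at 75.9 CPM in atrial-like and 17.5 CPM in ventricular-like cells, and BAMBI, a BMP pseudoreceptor, at 573 CPM in atrial-like and 133 CPM in ventricular-like cells. Neither overlapped between the classes over the hashtags. KDR, the VEGF receptor 2, was 2.45-fold higher, and CD200 was 4.14-fold higher in total and higher in 7 of 8 hashtags. EMILIN2 was 1.89-fold lower without overlap. SIRPA and VCAM1, markers of all cardiomyocytes, were within 1.5-fold: SIRPA was at 26.1 CPM in atrial-like and 29.4 CPM in ventricular-like cells, and VCAM1 at 200.5 CPM in atrial-like and 171 CPM in ventricular-like cells. Within hashtags SIRPA was lower and VCAM1 higher, each in 6 of 8, and KDR was higher in all 8.

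Among 19 measured matrix genes, 9 were higher and 4 lower. COL2A1, a fibrillar collagen best known from cartilage, was at 375 CPM in atrial-like and 96.2 CPM in ventricular-like cells without overlap. COL6A2 was 3.03-fold higher. LAMA4 and LAMB1, laminin chains, were 3.03 and 2.25-fold lower without overlap, and VCAN, versican, 1.504-fold lower. COL6A2 was higher and VCAN lower in all 8 hashtags. NCAM1, a cell adhesion molecule, was 2.27-fold higher without overlap.

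Energy metabolism differed in few genes. None of 22 measured glycolysis genes was higher and only SLC2A1, the glucose transporter, was lower, at 74.9 CPM in atrial-like and 129 CPM in ventricular-like cells and in all 8 hashtags. Of 16 oxidative genes 1 was higher and 3 were lower, led by CKMT2, the mitochondrial creatine kinase of muscle, at 3.76-fold lower without overlap. Of 17 measured stress genes, 2 were higher and 5 lower. The metallothioneins MT2A and MT1X were 3.92 and 3.87-fold lower, and DDIT4, induced by hypoxia and glucocorticoid, 4.04-fold lower. All 3 were lower in every hashtag although the ranges overlapped, MT2A at 25.8 to 203 CPM in atrial-like cells and 113 to 1316 CPM in ventricular-like cells. ATF3, a stress-induced factor, was 2.81-fold higher and higher in 7 of 8 hashtags.

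Cell cycle genes were slightly higher over all cells, with 4 of 11 measured S phase genes and 5 of 11 G2M genes past 1.5-fold and none lower. This did not hold across hashtags: 1 gene of each list was higher in every hashtag. MKI67, the proliferation marker, was at 10.4 CPM in atrial-like and 5.26 CPM in ventricular-like cells, but higher in only 3 of 8 hashtags. The rule removed most mitotic cells, so these levels describe what it left.

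Markers of other cell types moved with the comparison at low levels. The 10 stromal genes summed to 120 CPM in atrial-like and 58.1 CPM in ventricular-like cells, led by COL3A1 at 42.9 CPM in atrial-like cells, and 3 of 3 measured were higher, none in every hashtag. The 9 endoderm genes summed to 171 CPM in atrial-like and 85.7 CPM in ventricular-like cells. Part of this came from a few cells: 3 cells held 229 of the 363 AFP UMIs of the atrial-like class, and 1 cell held 185 of its 212 APOA2 UMIs. The 9 epicardial genes summed to 15.2 CPM in atrial-like and 15.4 CPM in ventricular-like cells, with UPK3B at 0 in atrial-like cells. Apart from EGFL7, endothelial genes were below 1 CPM in both classes, with CLDN5 at 0 in atrial-like cells. The 8 epithelial genes summed to 655 CPM in atrial-like and 692 CPM in ventricular-like cells, and KRT19 was 2.74-fold lower, in all 8 hashtags. The 8 pluripotency and neural genes summed to 13.5 CPM in atrial-like and 3.65 CPM in ventricular-like cells, with SOX1 at 0 in both. At least 1 UMI of 10 such genes was present in 52.1% of atrial-like and 59.7% of ventricular-like cells. The part of these markers in the differences above was not tested beyond leaving out the cells that held them, which is given among the processing alternatives.

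At the edge of the rule, the 413 atrial-like cells with exactly 2 NR2F2 UMIs were set beside the 840 cells just outside it, with 1 UMI. NPPA was at 1897 CPM in the cells with 2 UMIs and 1192 CPM in those with 1, NR2F1 at 21.5 CPM with 2 UMIs and 11.4 CPM with 1, and IRX4 at 36.8 CPM with 2 UMIs and 70.8 CPM with 1. For these 3 genes the cells just outside lay between the class and the ventricular-like cells. This did not hold for canal genes and NPPB. In the cells with 1 UMI, BMP2 was at 231, TBX3 at 73.1, TBX2 at 64.6, MSX2 at 42.7 and NPPB at 1894 CPM. The whole class had no more of them, at 228, 69.5, 51.1, 38.3 and 1855 CPM.

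Levels also changed over finer bins of NR2F2. All HEY2-negative, SHOX2-negative cardiomyocytes with at least 5000 UMIs were binned by the NR2F2 UMIs left after thinning to 5000, at 0, 1, 2, 3 to 4, and 5 or more, which gave 3142, 691, 293, 306 and 120 cells. Over these bins PAM was at 122, 182, 217, 295 and 336 CPM. NPPA was at 788, 1726, 2052, 2380 and 2615 CPM, and SFRP1 at 362, 793, 1166, 1330 and 1493 CPM. NR2F1 was at 4.05, 18.9, 52.5, 49.4 and 92.1 CPM, nearly flat between the bins of 2 and of 3 to 4. On the other side IRX4 was at 93.01, 53.97, 23.2, 18.5 and 9.74 CPM, MYH7 at 371, 248, 128, 100.2 and 83.2 CPM and MYL3 at 3204, 2379, 1959, 1875 and 1667 CPM. Among node markers, HCN4 was at 69.8, 124, 144, 169 and 166 CPM and CACNA1D at 37.5, 62.45, 83.5, 96.85 and 121 CPM. ISL1 stayed low, at 7.65, 6.96, 9.86, 9.42 and 13.3 CPM, with intervals that overlapped between all bins. Genes of other kinds moved over the bins as well. The stromal marker COL3A1 was at 37.5, 39.9, 33.5, 57.5 and 54.9 CPM and MT2A at 389.8, 160, 87.3, 99.9 and 89.4 CPM. Their part in the change over the bins was not tested. Of the 1184 atrial-like cells with at least 5000 UMIs, 86.7% kept an NR2F2 UMI after thinning. The bin of 0 thus also holds cells of the class. Whether the change is graded or comes from a mixture of classes was not tested.

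NPPB, BMP2 and ANKRD1 took another course. NPPB was highest in the bin of 1 UMI, at 2223 CPM, and lowest in the bin of 5 or more, at 477 CPM. BMP2 was highest at 2 UMIs, at 284 CPM, and at 136 CPM in the bin of 5 or more. ANKRD1 was highest at 2 UMIs, at 3340 CPM, against 2501 CPM in the bin of 5 or more. Over all cells the bin with the most NR2F2 thus had the highest NPPA and the lowest NPPB. The bins differ in hashtag, as given below. Among the 8 compared hashtags, atrial-like cells of Hashtag15 had the lowest NPPB and ANKRD1, at 893 and 1688 CPM. From the bin of 0 to that of 1 UMI, NPPB went from 1463 to 2223 CPM over all cells and from 1127 to 1922 CPM within Hashtag15. BMP2 went from 124 to 244 CPM over all cells and from 290 to 316 CPM within Hashtag15. ANKRD1 went from 1836 to 3151 CPM over all cells and from 1911 to 1999 CPM within Hashtag15. The part of the hashtag in the courses of NPPB, BMP2 and ANKRD1 was not tested beyond these values.

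**Figure D4:**
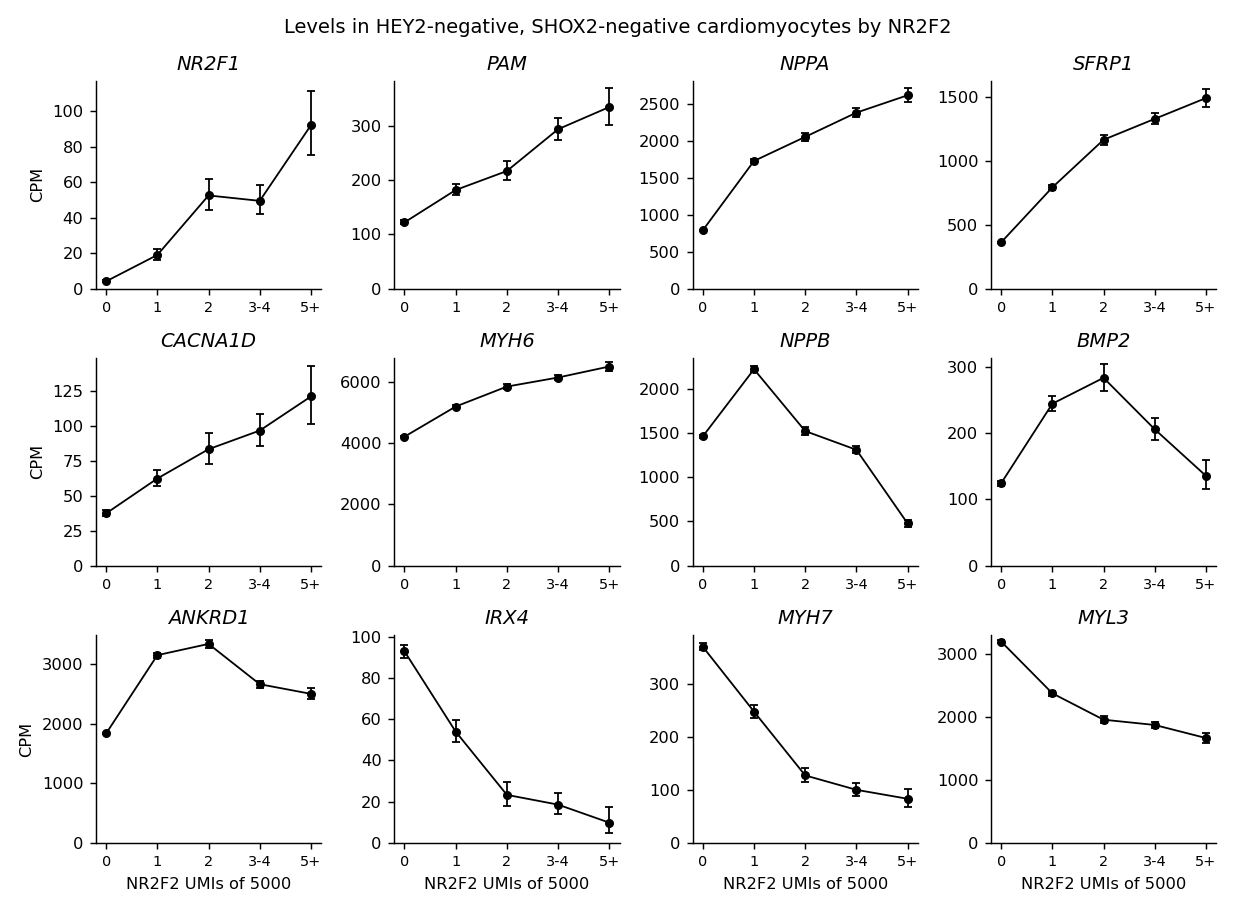
Summed level (CPM, linear axes from 0) of 12 genes in HEY2-negative, SHOX2-negative cardiomyocytes binned by NR2F2 UMIs of 5000, with exact 95% Poisson intervals. NPPA and PAM are highest in the top bin (2615 and 336 CPM), IRX4 is lowest there (9.74 CPM), and NPPB is highest at 1 UMI (2223 CPM).

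The bins also differed in hashtag, since Hashtag15 held 7.72% of the assigned cells with 0 NR2F2 UMIs and 60.0% of those with 5 or more. Within Hashtag15 alone the order was kept for NPPA (1267, 1547, 2145, 2280 and 2803 CPM) and PAM (136, 167, 234, 244 and 345 CPM). IRX4 there was at 53.6, 21.4, 16.2, 7.29 and 6.47 CPM. In its bins of 0 and 1 UMI, SFRP1 was at 724 and 934 CPM, HCN4 at 112 and 124 CPM and CACNA1D at 69.3 and 80.1 CPM. MYL3 was at 2310 and 2097 CPM, MT2A at 70.1 and 42.0 CPM and MYH7 at 210 and 108 CPM. For SFRP1, HCN4, CACNA1D, MYL3 and MT2A the step between these bins was thus smaller than over all cells. The part of the hashtag in these steps was not tested. In the 11 hashtags other than 14 and 15, PAM was at 128, 211, 216, 360 and 393 CPM, but NPPA was at 900, 1670, 2008, 2693 and 1653 CPM, lower in the last bin, which held 18 cells. NR2F1 was also tied to Hashtag15, where cells with 0 NR2F2 UMIs were at 33.0 CPM, against 2.67 CPM in the 11 other hashtags. In those hashtags it was at 12.5, 28.5, 54.1 and 11.6 CPM in the bins of 1, 2, 3 to 4, and 5 or more.

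Atrial-like cells varied among themselves in NPPA. At 5000 UMIs the median cell held 5 NPPA UMIs, the highest 214, and 19.9% held none, against a median of 0 and a highest of 42 in ventricular-like cells. Split by this count, 440 cells held 0 to 2, 352 held 3 to 10 and 392 held over 10 NPPA UMIs. NPPB was at 703, 1470 and 3695 CPM in these groups, ANKRD1 at 2311, 2715 and 4521 CPM and ACTA1 at 157, 270 and 569 CPM. PAM was at 182, 224 and 328 CPM. BMP2 ran the other way, at 317, 218 and 139 CPM, as did TBX2 at 67.5, 46.9 and 35.6 CPM, TBX3 at 79.3, 74.9 and 52.1 CPM, and IRX4 at 36.3, 25.04 and 14.8 CPM. HCN4, at 125, 134 and 164 CPM, varied less. Of the other canal markers, MSX2 was at 41.3, 44.4 and 29.7 CPM, GJC1 at 42.7, 36.3 and 43.01 CPM, CACNA1G at 32.8, 26.02 and 26.05 CPM and MSX1 at 6.19, 3.93 and 2.21 CPM. Thus BMP2, TBX2, TBX3 and MSX1 fell in order over the groups, and MSX2, GJC1 and CACNA1G did not.

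Markers of other cells were also lowest in the group with the most NPPA. The 10 stromal genes summed to 149.5, 125 and 75.45 CPM, with COL3A1 at 52.9, 48.1 and 23.8 CPM, and the 9 endoderm genes to 276, 145 and 77.7 CPM. The endoderm sums rest in part on a few cells. In the whole class 3 cells held 512 of 696 SERPINA1 UMIs and 1 cell held 185 of 212 APOA2 UMIs. MT2A was at 225, 117 and 53.3 CPM. The part of these markers in the differences between the NPPA groups was not tested.

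Within Hashtag15 the groups held 131, 107 and 116 cells, and BMP2 was at 295, 247 and 56.5 CPM, TBX3 at 71.2, 66.6 and 26.9 CPM and PAM at 171, 226 and 327 CPM, in the same order. MSX2 was at 37.95, 45.0 and 21.5 CPM there, and TBX2 at 50.6, 36.0 and 35.9 CPM. The stromal sum was at 129, 103.5 and 43.96 CPM, with COL3A1 at 42.7, 38.7 and 8.07 CPM, and the endoderm sum at 179, 75.6 and 52.9 CPM. NPPB, at 839.7, 384 and 1608 CPM, was lowest in the middle group there. The NPPA groups were cut from a continuous count, with 87 cells at 2 UMIs and 52 at 3, and are ranges, not cell types.

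The SHOX2-positive cells are the class most like the atrial-like cells, and the question was where the 2 differ outside SHOX2. Median depth was 9237 UMIs in atrial-like and 9497 UMIs in SHOX2-positive cells. Of 8951 measured genes, 512 (5.72%) were higher and 674 (7.53%) lower in atrial-like cells, with a median log2 ratio of -0.03. With 1861678 UMIs in the SHOX2-positive class, low genes had wide intervals. Since 407 of the atrial-like and 68 of the SHOX2-positive cells carried Hashtag15, values within that hashtag are given as well.

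Of 12 measured atrial markers, 7 were within 1.5-fold, 1 was higher and 4 were lower in atrial-like cells, with a median log2 ratio of -0.10. NPPA was at 2124 CPM in atrial-like and 1573 CPM in SHOX2-positive cells, a ratio of 1.35 (1.30 to 1.40). Within Hashtag15 the order turned, with NPPA at 2142 CPM in atrial-like and 2781 CPM in SHOX2-positive cells, a ratio of 0.770 (0.730 to 0.812). TBX5 was at 155 CPM in atrial-like and 163 CPM in SHOX2-positive cells, and at 179 CPM in atrial-like and 203.5 CPM in SHOX2-positive cells within Hashtag15. PAM was at 239 CPM in atrial-like and 368 CPM in SHOX2-positive cells, 1.54-fold lower, and within Hashtag15 at 234 CPM in atrial-like and 442 CPM in SHOX2-positive cells. NR2F1 was at 41.7 CPM in atrial-like and 45.7 CPM in SHOX2-positive cells over all cells, but at 84.4 CPM in atrial-like and 20.2 CPM in SHOX2-positive cells within Hashtag15, a ratio of 4.18 (2.36 to 8.18). Of the 85 NR2F1 UMIs of the SHOX2-positive class, 33 came from 3 cells. KCNA5 was at 4.33 CPM in atrial-like and 15.0 CPM in SHOX2-positive cells, 3.47-fold lower (2.13 to 5.54). Within Hashtag15 KCNA5 was at 6.49 CPM in atrial-like and 21.9 CPM in SHOX2-positive cells.

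Of 9 measured sinus node markers, 6 were lower and 1 was higher in atrial-like cells, with a median log2 ratio of -0.96. ISL1, the LIM factor of the sinus node and second heart field, was at 9.56 CPM in atrial-like and 57.5 CPM in SHOX2-positive cells, and at 6.76 CPM in atrial-like and 40.4 CPM in SHOX2-positive cells within Hashtag15. BMP4 was at 21.0 CPM in atrial-like and 93.5 CPM in SHOX2-positive cells, 4.46-fold lower, and 2.70-fold lower within Hashtag15. HCN4, by contrast, was at 145 CPM in atrial-like and 136 CPM in SHOX2-positive cells, a ratio of 1.06 (0.929 to 1.21), and at 148 CPM in atrial-like and 139.6 CPM in SHOX2-positive cells within Hashtag15. TBX18, the sinus horn factor, was at 3.81 CPM in atrial-like and 44.1 CPM in SHOX2-positive cells over all cells. Within Hashtag15 it was at 3.25 CPM in atrial-like and 3.36 CPM in SHOX2-positive cells, below the measured level. That ratio of 0.965 (0.215 to 8.88) rests on 12 and 2 UMIs, so it does not show equal levels.

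The canal genes went the other way, with 3 of 6 measured higher in atrial-like cells and none lower. BMP2 was at 228 CPM in atrial-like and 112 CPM in SHOX2-positive cells, a ratio of 2.04 (1.77 to 2.36), and 1.69 within Hashtag15. TBX3 was at 69.5 CPM in atrial-like and 33.3 CPM in SHOX2-positive cells, a ratio of 2.09, and 1.86 (1.15 to 3.20) within Hashtag15. Since TBX3 is also listed as a node marker, it is the 1 higher gene of that list. NPPB was 3.20-fold higher over all cells and 1.66-fold within Hashtag15. SAA1 was 5.21-fold higher over all cells and 4.16-fold within Hashtag15, and KDR 3.94 and 5.67-fold.

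Of 6 measured ventricular markers, 4 were higher in atrial-like cells and none lower, with a median log2 ratio of 0.85. Within Hashtag15 1 of 5 was higher and none lower, with a median of 0.27. MYL3 was 1.94-fold higher (1.85 to 2.03) over all cells and 1.37-fold (1.27 to 1.48) within Hashtag15. MYH7 was 4.00-fold higher in atrial-like cells, at 176 CPM against 44.1 CPM in SHOX2-positive cells. Within Hashtag15 it was at 74.9 CPM in atrial-like and 68.9 CPM in SHOX2-positive cells, a ratio of 1.09 (0.781 to 1.55). The MYH7 difference over all cells was thus not seen within that hashtag. Cell cycle genes were also higher in atrial-like cells, 5 of 11 measured in the S phase list and 5 of 11 in the G2M list. Within Hashtag15 these were 9 of 11 and 5 of 6, and none was lower in either comparison. The S phase sum there was 452 CPM in atrial-like and 178 CPM in SHOX2-positive cells. Counts were low, with 3 GINS2 UMIs in the SHOX2-positive cells of Hashtag15.

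Over all cells stromal and endoderm genes were lower in atrial-like than in SHOX2-positive cells, the stromal sum at 120 CPM in atrial-like and 277 CPM in SHOX2-positive cells and the endoderm sum at 171 CPM in atrial-like and 1219 CPM in SHOX2-positive cells. Of the 1148 AFP UMIs of the SHOX2-positive class, 1037 came from 1 cell, and of its 662 SERPINA1 UMIs 573 came from 1 cell. Within Hashtag15 the stromal sum was at 93.6 CPM in atrial-like and 197 CPM in SHOX2-positive cells, but the endoderm sum at 104.2 CPM in atrial-like and 104.3 CPM in SHOX2-positive cells. AFP there was at 17.3 CPM in atrial-like and 15.1 CPM in SHOX2-positive cells. SERPINA1 was at 34.1 CPM in atrial-like and 16.8 CPM in SHOX2-positive cells, a ratio of 2.03 (1.07 to 4.33). Of the 696 SERPINA1 UMIs of all atrial-like cells, however, 512 came from 3 cells and 265 from 1 cell. The interval does not cover such a concentration in few cells. The lower endoderm level over all cells was thus not seen within that hashtag.

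**Figure D5:**
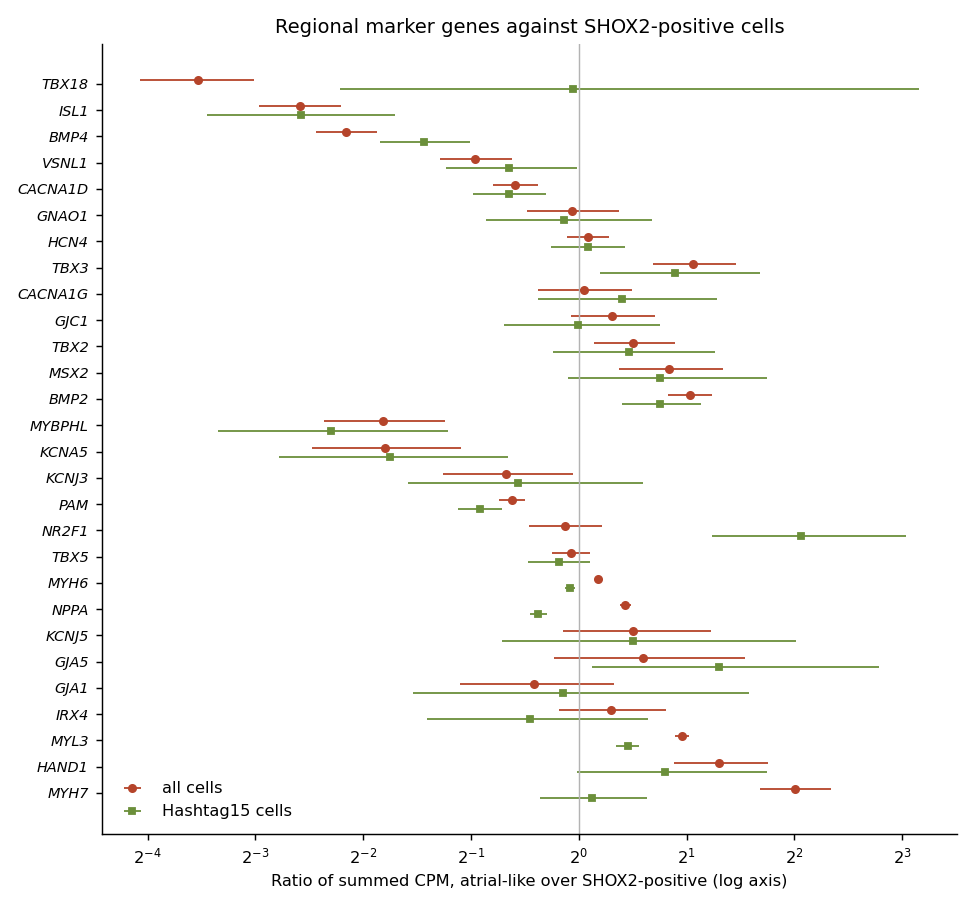
Ratio of summed CPM (atrial-like over SHOX2-positive, log axis) with exact 95% intervals for genes measured among the sinus node, atrioventricular canal, atrial and ventricular markers (not all are shown), top to bottom, over all cells (red) and within Hashtag15 (green, 407 against 68 cells). ISL1 and BMP4 lie below 1 and BMP2 and TBX3 above 1 in both, whereas MYH7 departs from 1 over all cells alone. TBX18 lies below 1 over all cells, and its Hashtag15 interval is wide (0.215 to 8.88).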

How the data were processed

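Gene expression and hashtag libraries of 1 pool of thawed cells (2 samples in the labels) are in 1 matrix of raw counts (UMIs) that the authors deposited, with 36601 genes and 13 hashtags for 24038 barcodes. It was made with Cell Ranger 4.0.0, per the file headers, and build hg38, per the submitters' processing notes. How reads were aligned, against which annotation and whether by strand is not given in the sources used here.

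Filters, the cardiomyocyte gate and the class rule are as given above. A cell got a hashtag where at least 70% of at least 20 hashtag UMIs were of 1 hashtag. UMIs were summed per class and expressed as CPM. Ratios have exact conditional binomial intervals, levels exact Poisson and shares exact Clopper-Pearson intervals (95%, scipy 1.17.1, Python 3.11.15). Ratios within hashtags had 5 CPM added to both sides. PCR and droplet effects are not in these intervals. Doublets were marked with Scrublet in scanpy 1.11.5 (2314 of 21623 barcodes, 10.7%, against an expected 17.3%) and kept. The ratio and interval were tested on simulated data. Gene names came from the files, and positions from GENCODE 29.

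The members and the 26 lists (412 genes) were chosen with earlier results of these data known. Genes named were, per list, up to 4 on each side with the largest ratio past 1.5, the 8 largest outside the lists at 50 CPM or more on each side, and a fixed set. Other list members named beside them were chosen after their values were seen. A few genes of these sets are counted in the lists but not reported here by name.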

Additional observations from a re-analysis of the deposited data

Results flagged for a closer look

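Among 19 genes tested, the log2 ratios of 4 stood apart in 1 of the 8 compared hashtags, with 5 CPM added to both sides. Chance flags about 1 in 20 such groups. In Hashtag7, which holds 22 atrial-like cells, the ratio of MYH7 was 2.08 while the 7 other hashtags were below 0. In the same hashtag IRX4 was at -0.93 and CACNA1D at 0.81, both nearer to 0 than elsewhere. KCNJ5 was at -0.59 in Hashtag14, which holds 35 ventricular-like cells. What Hashtag7 and Hashtag14 mark is not given in the labels, and no cause was tested.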

How the results depend on the processing

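The classes were set side by side within hashtags as values, with no test over hashtags, since the labels do not say what a hashtag marks. The share of atrial-like cells (7.64%) was 8.18% with the stricter filter, 5.48% after thinning to 5000 UMIs, 12.6% with NR2F2 of at least 1 UMI, 3.64% with at least 4, 11.2% with the contractile sum of at least 40000 CPM, and 5.54 to 8.04% with 1 hashtag left out, lowest without Hashtag15. Choices added after seeing the data gave 37.1% in Hashtag14 and Hashtag15 alone and 3.71% in the other hashtags. Genes higher than in ventricular-like cells (972) were 623 against all other cardiomyocytes, 294 at a minimum of 50 CPM, 638 by the median within hashtags (605 with a hashtag call at 50%) and 962 to 1002 with 1 hashtag left out. Genes lower (384) were 137 at 50 CPM, 864 in Hashtag14 and Hashtag15 alone and 369 to 397 with 1 hashtag left out. Centring on the median gave 745 higher and 563 lower. Genes higher than in SHOX2-positive cells (512) were 1213 after thinning, 121 at 50 CPM, 878 in Hashtag14 and Hashtag15, 1347 in the other hashtags and 494 to 685 with 1 hashtag left out; genes lower (674) were 172 at 50 CPM and 662 to 850. Of 115 named genes outside the rule, log2 ratios turned for WFDC2 (-0.12 without Scrublet-marked cells, -0.49 within hashtags), MKI67 (-0.012 within hashtags, -0.70 in Hashtag14 and Hashtag15), APOA2 (-0.31 within hashtags, -0.26 with the 50% call, -0.059 without Hashtag6, the lowest with 1 hashtag left out, and 3.29 without Hashtag15, the highest), ANLN (-0.093 with the 50% call, -0.63 in Hashtag14 and Hashtag15) and JUNB (0.47 in Hashtag14 and Hashtag15). The cause was not tested. Ratios changed in size more often than in sign. Of the 115, 88 were classed as moved without turning by the median within hashtags and 94 with the 50% call. In Hashtag14 and Hashtag15 alone 92 moved, without Hashtag15 41, and with the stricter filter 0. Leaving out cells with a UMI of other cell types turned none, and COL3A1, COL1A1, AFP and WFDC2 had no value there. Depth limits genes below 10 CPM.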
